A study of Mus musculus with 9 samples.

Results

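The 10 genes described here are *Atf4*, its relative *Atf5*, the ATF4 targets *Trib3*, *Chac1* and *Asns*, the serine synthesis enzymes *Phgdh*, *Psat1* and *Psph*, and the mitochondrial one-carbon enzymes *Shmt2* and *Mthfd2*. With earlier results of these data known, they were chosen by symbol from the 54347 genes of a table of messenger RNA counts. All 10 were among the 13082 genes with enough counts to be tested. The table covers 3 mouse myeloid lines with 3 libraries each. Hox-WT and Hox-URE were made from lineage-negative, c-Kit-positive bone marrow cells immortalized with Hoxb8-ER, a fusion protein that acts while estradiol is in the medium. The mouse behind Hox-WT was wild-type. Hox-URE derives from a preleukemic mouse with the UREd/d genotype, which lacks on both alleles the URE, an upstream regulatory element and enhancer of the PU.1 gene *Spi1*. URE-AML, labelled B22 and described as AML blast-like, carries the same UREd/d genotype and was obtained from leukemic blasts through rounds of culture with IL-3. All 3 lines were grown in IMDM with 20% FCS, IL-3, IL-6 and SCF at 10 ng/ml each and estradiol. IMDM supplies serine, glycine and asparagine. Each line came from 1 mouse, so genotype or stage and line cannot be told apart, and every p-value measures the spread between libraries of a line, which may be technical.

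ATF4 is a bZIP transcription factor at the centre of the integrated stress response. Kinases that sense amino acid shortage, misfolded protein, heme shortage or double-stranded RNA phosphorylate the initiation factor eIF2, which slows most translation but lets *Atf4* messenger RNA be translated, so its RNA level is not a measure of its protein. ATF4 pairs with C/EBP proteins on composite DNA elements and activates genes for amino acid synthesis, amino acid uptake and tRNA charging, among them the serine pathway that leads from a glycolytic intermediate to serine, glycine and folate-bound one-carbon units. Leukemic cells use these pathways for nucleotide and protein synthesis, and shortage of asparagine is the basis of asparaginase treatment.

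The promoters were searched for the core of the C/EBP-ATF response element, TGATGNAA on both strands, since this is the element through which ATF4 is known to act. Windows of 300 bases around RefSeq starts (GRCm38.p6) were found for 10 of the 10 genes, 12 windows in all, and 3 genes held a match: *Chac1*, *Asns* and *Trib3*. By comparison, 2.71% of the 9784 tested genes with a window held one, as did 3.97% of all 32851 windows. The 3 sequences are shown because they carry the matches, in capitals, 5′ to 3′ along the gene.
*Chac1*, chr2:119350992-119351291, plus strand: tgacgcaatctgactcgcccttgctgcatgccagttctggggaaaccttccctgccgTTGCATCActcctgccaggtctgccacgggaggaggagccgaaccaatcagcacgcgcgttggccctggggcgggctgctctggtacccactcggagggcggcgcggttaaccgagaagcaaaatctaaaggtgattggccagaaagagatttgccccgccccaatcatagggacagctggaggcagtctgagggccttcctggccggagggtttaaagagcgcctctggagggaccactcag
*Asns*, chr6:7693160-7693459, minus strand: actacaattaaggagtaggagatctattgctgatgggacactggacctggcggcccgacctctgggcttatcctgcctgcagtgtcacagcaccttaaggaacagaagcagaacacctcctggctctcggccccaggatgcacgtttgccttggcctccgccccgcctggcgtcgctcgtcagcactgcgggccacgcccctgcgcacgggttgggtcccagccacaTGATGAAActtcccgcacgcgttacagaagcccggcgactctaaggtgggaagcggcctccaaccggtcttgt
*Trib3*, chr2:152344011-152344310, minus strand: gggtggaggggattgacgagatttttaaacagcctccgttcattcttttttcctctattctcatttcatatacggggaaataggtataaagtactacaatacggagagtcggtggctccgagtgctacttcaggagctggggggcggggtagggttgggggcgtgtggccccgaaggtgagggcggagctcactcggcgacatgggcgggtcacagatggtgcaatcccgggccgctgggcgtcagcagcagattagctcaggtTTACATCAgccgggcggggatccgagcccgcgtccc
The match of *Asns* reads TGATGAAA on the gene's own strand and begins at position -23 from the annotated start. Those of *Chac1* (TGATGCAA) and *Trib3* (TGATGTAA) lie on the opposite strand, so the capitals show their reverse complements. Along the gene, these capitals begin at position -193 for *Chac1* and 14 bases past the start for *Trib3*. A match is only a run of letters, and binding was not measured here. The other 7 genes had no match in these windows, which says nothing of elements elsewhere.

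Values are given as CPM, counts scaled by the TMM-adjusted library total. Total counts were 20331064 to 28588718 per library, at which 3 counts stand at 0.104 to 0.153 CPM, a floor that covers counting error only. A gene was called higher or lower at an adjusted p under 0.05 (edgeR quasi-likelihood F test, Benjamini-Hochberg over all tested genes) and a fold change over 1.5. *Spi1* was at 102 ± 6.79 CPM in Hox-WT (SD, n = 3), 0.0259 ± 0.0226 in Hox-URE and 4.79 ± 2.02 in URE-AML. The Hox-URE value rests on 0 to 1 counts per library and is under the floor. *Hoxb8* was at 65.8 ± 4.07 CPM in Hox-WT and 132 ± 7.98 in Hox-URE, and had 0 counts in every URE-AML library, which allows up to 3 counts per library. All 5 neutrophil precursor markers were above 3 counts in each line. Of 3 stem and progenitor markers, *Cd34* and *Flt3* were at or under 3 counts in every URE-AML library.

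The 10 genes did not move as a block. They were chosen with earlier results of these data known, so the shares beside their counts are only a description. In Hox-URE, 6 of 10 were called higher than in Hox-WT, against 21.3% of all tested genes, and 0 were called lower, against 15.9%. In URE-AML, 4 of 10 were called higher than in Hox-WT, against 23% of all tested genes, and 3 were called lower, against 20.2%. In URE-AML, 9 of 10 were called lower than in Hox-URE, against 22.4% of all tested genes, and 0 were called higher, against 20.3%. The count of 0 lower in Hox-URE was 0 in DESeq2 as well. In the edgeR test, 1 gene, *Psat1*, was lower in Hox-URE at an adjusted p of 0.0168 but below a fold change of 1.5. The count of 0 higher in URE-AML against Hox-URE was 0 in DESeq2 and at an unadjusted p under 0.05. The median log2 fold change of the 10 genes was 1.12 in Hox-URE against Hox-WT, where that of all tested genes was 0. It was -0.13 in URE-AML against Hox-WT (all tested genes 0.002) and -1.46 in URE-AML against Hox-URE (all tested genes 0). The libraries of both lines did not overlap for 8 of 10 genes in each comparison, against 60.3%, 67.6% and 62.8% of all tested genes. Each line enters 2 of the 3 comparisons, so these are not independent of each other. In bulk libraries, fewer cells expressing a gene and less RNA per cell cannot be told apart.

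**Figure D1:**
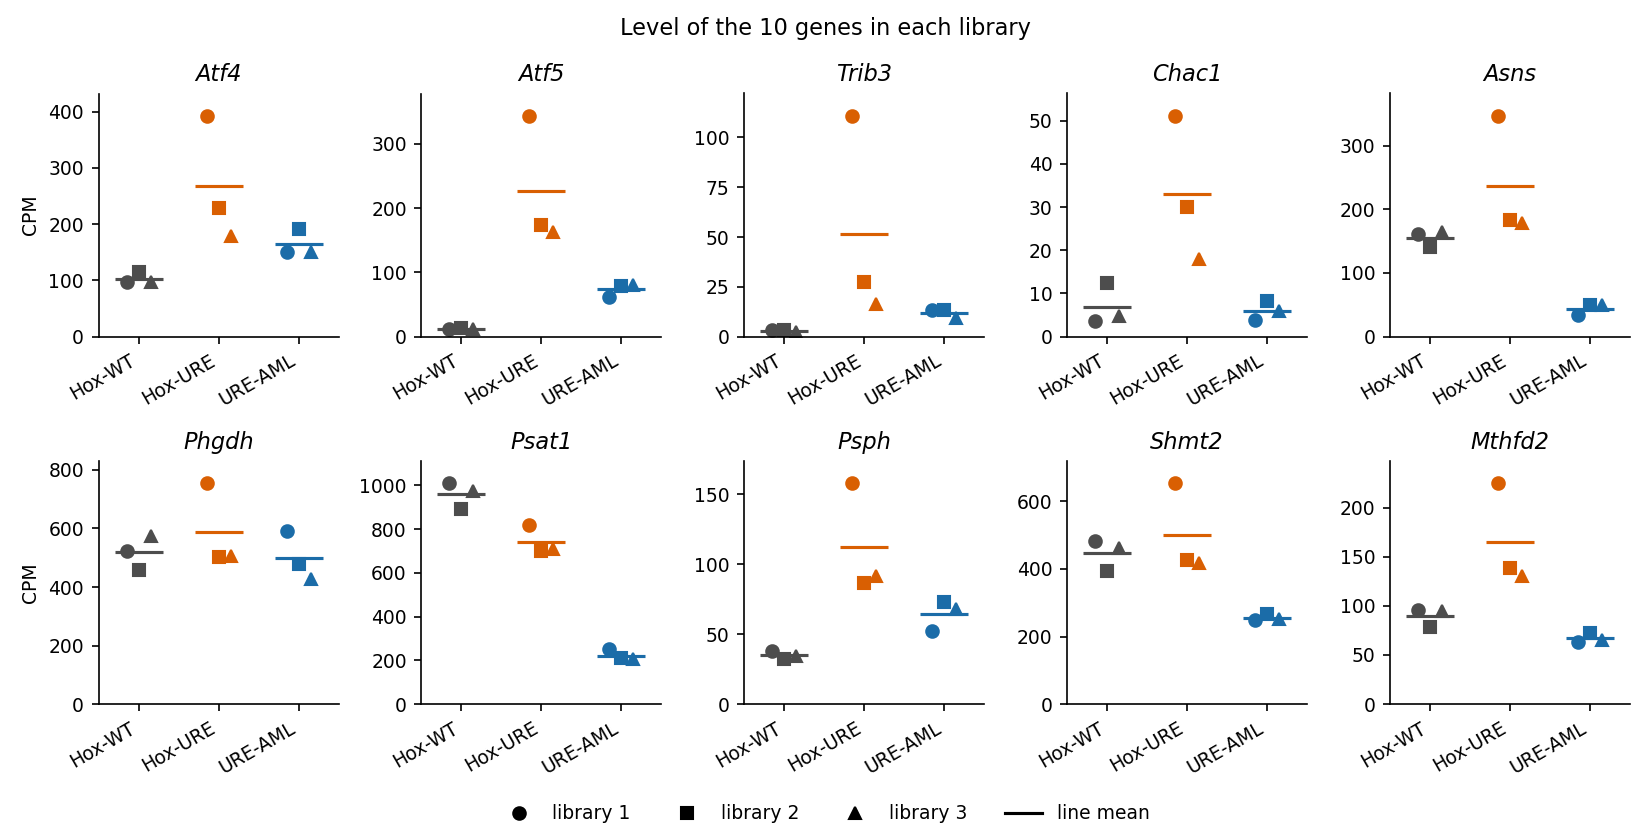
CPM of the 10 genes (y axis, from 0, one scale per panel) in each library of Hox-WT, Hox-URE and URE-AML, with symbols for libraries 1 to 3 and a bar for the line mean. Hox-URE library 1 is the highest of its line in all 10 panels, and *Psat1* and *Asns* are lowest in URE-AML while *Atf5*, *Psph* and *Trib3* are lowest in Hox-WT.

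Hox-URE library 1 stood apart for these genes, while the medians and overlap counts above include it. Named genes that lost a call without this library are given with and without it. It was the highest of the 3 Hox-URE libraries for 10 of 10 genes, against 38.1% of all tested genes, and exceeded both others over 1.5 times for 8 of 10, against 5.19% of all tested genes. Relative to library 2 and library 3, its CPM was 1.72 and 2.21 times for *Atf4*, 4.1 and 6.69 times for *Trib3*, and 1.17 and 1.15 times for *Psat1*. The *Phgdh* ratios, 1.51 and 1.5, stood at the threshold. The same library was the highest of its line for 9 of 9 amino acid transporters and 19 of 20 cytosolic tRNA synthetases. It was also the highest for 5 of 6 other stress targets, 8 of 10 genes of proline, aspartate, glutamine and cysteine synthesis, 7 of 10 folate enzymes, 2 of 2 glycine cleavage genes, 3 of 5 bZIP factors and 4 of 8 genes of the eIF2 list, all described further on. Basophil and mast cell markers moved the other way, with summed levels of 1400, 3320 and 5640 CPM in Hox-URE libraries 1, 2 and 3, against 373 to 732 in Hox-WT and 24.9 to 55.1 in URE-AML. Of these 5 markers, *Fcer1a* was at or under 3 counts in every library of both Hox lines. In the same order of libraries, stem and progenitor markers summed to 687, 1110 and 1150 CPM, neutrophil precursor markers to 3340, 4480 and 4570 and megakaryocyte markers to 16, 33.6 and 46.4, each lowest in library 1. Monocyte and macrophage markers summed to 0.546, 2.57 and 4.75 CPM in Hox-URE, against 273 to 284 in Hox-WT and 2.49 to 8.64 in URE-AML. Mitochondrial transcripts took 5.56%, 5.68% and 3.51% of counts in Hox-URE libraries 1, 2 and 3. The part of these differences in the results was not tested. No library of Hox-WT or URE-AML exceeded both others of its line over 1.5 times for more than 1 of the 10 genes.

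**Figure D2:**
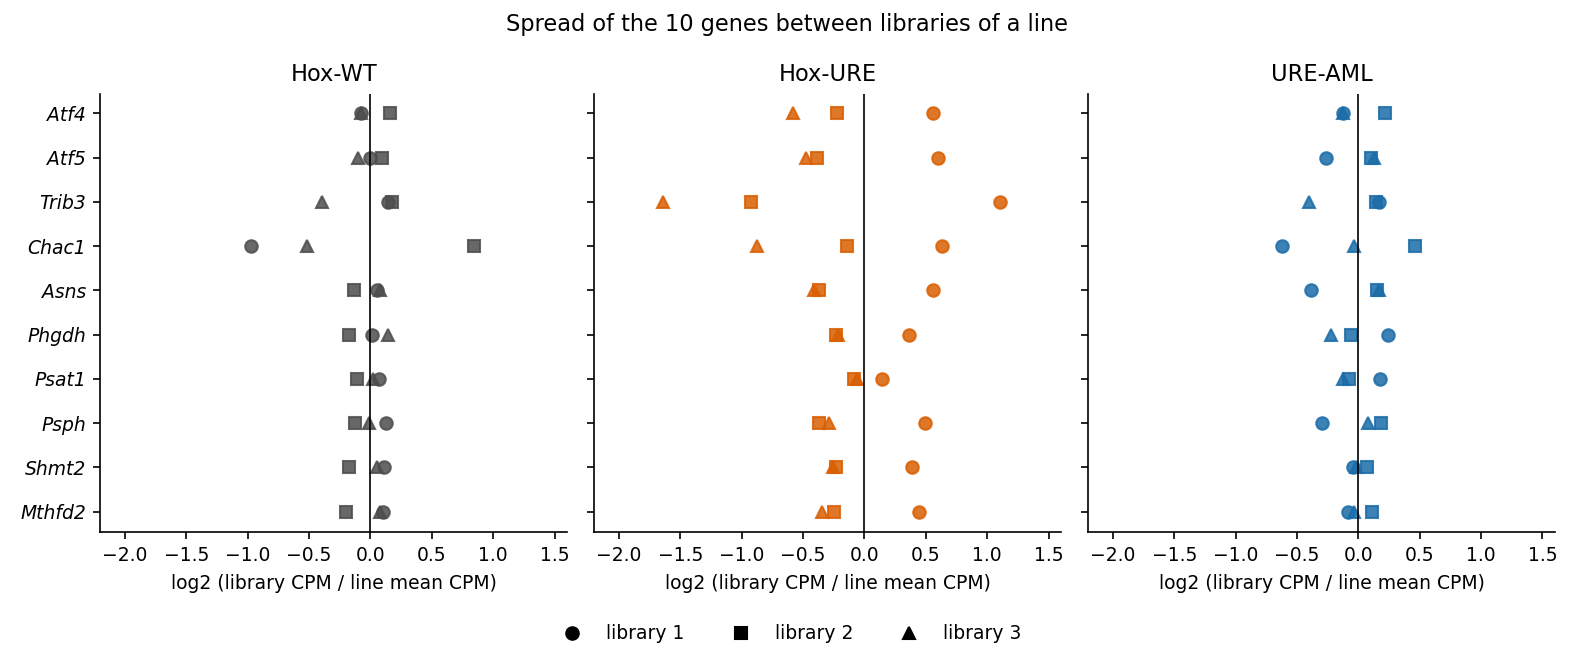
Log2 of each library's CPM over the mean CPM of its line (x axis) for the 10 genes (y axis), one panel per line and one symbol per library. In Hox-URE the 10 circles of library 1 lie right of the line mean, while in Hox-WT and URE-AML the libraries change places from gene to gene and *Chac1* is the most scattered.

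*Atf4* itself was highest in Hox-URE. It stood at 97.7, 115 and 97.6 CPM in Hox-WT libraries 1 to 3, at 393, 229 and 178 in Hox-URE and at 150, 191 and 150 in URE-AML. Every library of both URE lines was above all Hox-WT libraries, while Hox-URE library 3 lay below URE-AML library 2. *Atf4* was higher in Hox-URE than Hox-WT (log2 fold change 1.37 ± 0.25 SE, adjusted p = 0.00108), and was 0.97 without Hox-URE library 1. It passed narrowly in URE-AML against Hox-WT (0.66 ± 0.25, adjusted p = 0.0399), and this call was lost when any 1 of the Hox-WT or URE-AML libraries or Hox-URE library 2 was left out, with adjusted p of 0.0511 to 0.131 and log2 fold changes of 0.54 to 0.74. It was lower in URE-AML than Hox-URE (-0.71 ± 0.24, adjusted p = 0.0304), but not without Hox-URE library 1 (-0.32, adjusted p = 0.085), URE-AML library 1 (-0.65, adjusted p = 0.0922) or URE-AML library 3 (-0.65, adjusted p = 0.0926). *Atf4* lies on chromosome 15 (80255184 to 80257541, plus strand, GRCm38), whose 511 tested genes had a median log2 fold change of 0.33 between Hox-URE and Hox-WT and of -0.39 between URE-AML and Hox-URE, where the medians of the other chromosomes were between -0.09 and 0.23. The part of this chromosome-wide shift in the *Atf4* result was not tested.

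*Atf5*, an ATF4 relative that is also translated selectively under stress and serves the mitochondrial unfolded protein response, differed between all 3 lines. Its levels were 11.9, 12.7 and 11.1 CPM in Hox-WT, 344, 174 and 163 in Hox-URE and 61.2, 78.8 and 80.4 in URE-AML. No 2 lines overlapped, and Hox-WT was lowest. *Atf5* was higher than in Hox-WT by 4.26 ± 0.29 on the log2 scale in Hox-URE (adjusted p = 1.38e-06) and by 2.63 ± 0.27 in URE-AML (adjusted p = 1.83e-05). URE-AML was below Hox-URE (-1.63 ± 0.26, adjusted p = 0.000349). The gene lies on chromosome 7 (44812256 to 44816658, minus strand).

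*Trib3* encodes a pseudokinase that is induced by ATF4 and binds it, dampening its output. It was at 3.22, 3.28 and 2.21 CPM in Hox-WT, 111, 27.2 and 16.6 in Hox-URE and 13.6, 13.4 and 9.18 in URE-AML. The lines did not overlap, and Hox-URE library 1 was far above the other 2. *Trib3* was higher in Hox-URE than Hox-WT (log2 fold change 4.16 ± 0.66, adjusted p = 0.000451), at 2.91 without Hox-URE library 1. It was higher in URE-AML than Hox-WT (2.06 ± 0.64, adjusted p = 0.018), a call lost without Hox-WT library 3 (1.88, adjusted p = 0.0639). It was lower in URE-AML than Hox-URE (-2.10 ± 0.59, adjusted p = 0.0108), and the difference shrank to -0.87 without Hox-URE library 1 (adjusted p = 0.0142).

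*Chac1* encodes an enzyme that degrades glutathione and is induced late in the stress response. Its CPM were 3.52, 12.4 and 4.84 in Hox-WT, 51.2, 30 and 18 in Hox-URE and 3.92, 8.27 and 5.88 in URE-AML. All Hox-URE libraries were above all others, while Hox-WT and URE-AML overlapped. *Chac1* was higher in Hox-URE than Hox-WT (log2 fold change 2.26 ± 0.50, adjusted p = 0.00371), at 2.98 without Hox-WT library 2, and lower in URE-AML than Hox-URE (-2.46 ± 0.51, adjusted p = 0.00208). URE-AML and Hox-WT did not differ beyond the spread (-0.21 ± 0.51, adjusted p = 0.754), and the sign turned without Hox-WT library 2 (0.52) or URE-AML library 1 (0.03). *Chac1* (119351229 to 119354381, plus strand) and *Trib3* (152337422 to 152344032, minus strand) both lie on chromosome 2.

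*Asns*, which makes asparagine from aspartate, was lowest in URE-AML. It was at 161, 141 and 164 CPM in Hox-WT, 347, 183 and 178 in Hox-URE and 33.6, 49 and 49.5 in URE-AML. The highest URE-AML library was under the lowest library of both Hox lines. *Asns* was lower in URE-AML than Hox-WT (log2 fold change -1.82 ± 0.26, adjusted p = 0.000159) and than in Hox-URE (-2.42 ± 0.26, adjusted p = 2.62e-05). Hox-URE was not called against Hox-WT (0.60 ± 0.25, adjusted p = 0.063) although the libraries did not overlap. Leaving out 1 Hox-URE library moved this value between 0.21 (without library 1) and 0.76 (without library 3, adjusted p = 0.0285), and without library 2 it was 0.75 (adjusted p = 0.0434). *Asns* lies on chromosome 6 (7675169 to 7693254, minus strand).

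Of the 3 enzymes of serine synthesis, *Psat1* was lower in URE-AML, *Psph* was higher in both URE lines than in Hox-WT, and *Phgdh* was called in no comparison. *Phgdh*, the first enzyme, which oxidizes a glycolytic intermediate, was at 522, 459 and 573 CPM in Hox-WT, 755, 501 and 505 in Hox-URE and 590, 478 and 428 in URE-AML, and all lines overlapped. Hox-URE against Hox-WT gave a log2 fold change of 0.18 ± 0.18 (adjusted p = 0.423), URE-AML against Hox-WT one of -0.06 ± 0.18 (adjusted p = 0.817) and URE-AML against Hox-URE one of -0.24 ± 0.18 (adjusted p = 0.288). The first was -0.05 without Hox-URE library 1, and the second turned to 0.01 without Hox-WT library 3 and 0.04 without URE-AML library 3. The pseudogene *Phgdh-ps1* had 0 counts in all libraries. *Phgdh* lies on chromosome 3 (98313170 to 98339990, minus strand).

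*Psat1*, the second enzyme, which transfers the amino group from glutamate, was lower in URE-AML. It was at 1010, 893 and 975 CPM in Hox-WT, 817, 698 and 709 in Hox-URE and 251, 210 and 204 in URE-AML. The lines did not overlap, and URE-AML was below both others by a wide margin. *Psat1* was lower in URE-AML than Hox-WT (log2 fold change -2.12 ± 0.12, adjusted p = 1.61e-07) and than in Hox-URE (-1.74 ± 0.12, adjusted p = 7.15e-07). The difference of Hox-URE from Hox-WT was -0.37 ± 0.11 (adjusted p = 0.0168), below a fold change of 1.5 and so not called. *Psat1* lies on chromosome 19 (15904678 to 15947337, minus strand).

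*Psph*, the third enzyme, which removes the phosphate to release serine, was lowest in Hox-WT. Its CPM were 38.2, 31.9 and 34.7 in Hox-WT, 158, 86.8 and 91.5 in Hox-URE and 52.3, 73 and 68 in URE-AML. The lines did not overlap. Against Hox-WT, *Psph* was higher both in Hox-URE (log2 fold change 1.68 ± 0.23, adjusted p = 0.000152) and in URE-AML (0.88 ± 0.22, adjusted p = 0.00637). URE-AML was below Hox-URE (-0.80 ± 0.22, adjusted p = 0.0101), a difference of -0.47 without Hox-URE library 1, under a fold change of 1.5. *Psph* lies on chromosome 5 (129765558 to 129787449, minus strand).

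Both mitochondrial one-carbon enzymes were lower in URE-AML than Hox-URE. *Shmt2*, which splits serine into glycine and a folate-bound carbon, was at 482, 394 and 462 CPM in Hox-WT, 654, 426 and 417 in Hox-URE and 248, 267 and 251 in URE-AML. URE-AML was below every Hox library, and the Hox lines overlapped. *Shmt2* was lower in URE-AML than Hox-WT (log2 fold change -0.81 ± 0.17, adjusted p = 0.00195) and than in Hox-URE (-0.97 ± 0.17, adjusted p = 0.00063). Hox-URE was not called against Hox-WT (0.16 ± 0.17, adjusted p = 0.433), and the sign turned without Hox-URE library 1 (-0.09).

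*Mthfd2*, which oxidizes that folate-bound carbon further, was at 96.3, 78.1 and 94.7 CPM in Hox-WT, 225, 139 and 130 in Hox-URE and 63.2, 72.3 and 65.3 in URE-AML. The lines did not overlap, with Hox-URE highest and URE-AML lowest. *Mthfd2* was higher in Hox-URE than Hox-WT (log2 fold change 0.88 ± 0.19, adjusted p = 0.00312), but at 0.58, under a fold change of 1.5, without Hox-URE library 1. It was lower in URE-AML than Hox-URE (-1.30 ± 0.19, adjusted p = 0.000229) and was not called in URE-AML against Hox-WT (-0.42 ± 0.19, adjusted p = 0.081). *Shmt2* lies on chromosome 10 (127517123 to 127522444, minus strand) and *Mthfd2* on chromosome 6 (83305691 to 83325908, minus strand).

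**Figure D3:**
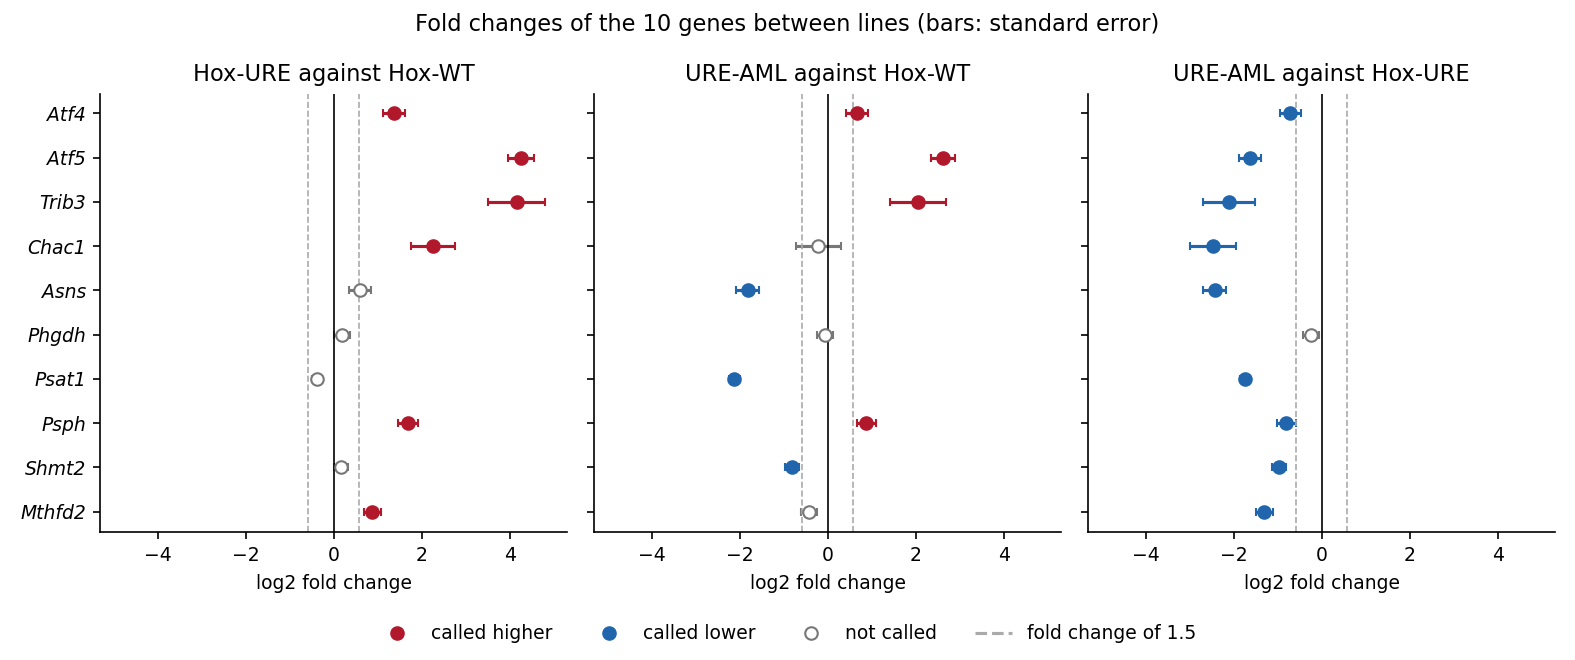
Log2 fold change (x axis, bars are standard errors, edgeR) of the 10 genes in the 3 comparisons, with dashed lines at a fold change of 1.5. Red points were called higher, blue points lower and open points not called: 6 red in Hox-URE against Hox-WT, 4 red and 3 blue in URE-AML against Hox-WT, and 9 blue in URE-AML against Hox-URE.

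Without Hox-URE library 1, 5 of the 10 genes were called higher in Hox-URE than Hox-WT, against 22% of all genes tested in that fit, and 7 were called lower in URE-AML than Hox-URE, against 22.8%. The genes that lost their calls were *Mthfd2* in the first comparison and *Atf4* and *Psph* in the second. The calls that held against Hox-WT were those of *Atf4*, *Atf5* (log2 fold change 3.82), *Psph* (1.34), *Chac1* (1.79) and *Trib3*. Those that held in URE-AML against Hox-URE were *Atf5* (-1.20), *Asns* (-2.04), *Psat1* (-1.67), *Shmt2* (-0.73), *Mthfd2* (-1.01), *Chac1* (-2.01) and *Trib3*. In URE-AML against Hox-WT, 2 of 10 were called higher without Hox-WT library 3, a share near the 22.1% of all genes tested in that fit, and *Atf4* and *Trib3* lost their calls.

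To compare genes with each other, CPM were divided by the length of the longest coding transcript in kilobases (GENCODE M21). In Hox-WT, *Psat1* was the highest of the 10 at 367 CPM per kilobase, before *Phgdh* at 274 and *Shmt2* at 195. In URE-AML, *Phgdh* led at 264, before *Shmt2* at 111 and *Atf4* at 95.1, and *Psat1* was the fourth at 84.8. In Hox-URE, *Phgdh* was at 310, *Psat1* at 283 and *Shmt2* at 218. *Psph* was the lowest of the 3 serine synthesis enzymes in every line, with 20.1 CPM per kilobase for Hox-WT, 64.6 for Hox-URE and 37.2 for URE-AML. The order depends on the transcript used in each line. With the median transcript length, *Phgdh* (443) came before *Psat1* (419) in Hox-WT, *Atf4* (138) before *Shmt2* (113) in URE-AML, and *Asns* (260) and *Atf4* (224) before *Shmt2* (220) in Hox-URE.

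Other genes of the response were read from 8 lists, also chosen with earlier results known. Their counts stand beside the shares of all tested genes given above, as a description. With Hox-WT as the reference, Hox-URE had 21.3% of all tested genes higher and 15.9% lower, and URE-AML had 23% higher and 20.2% lower. With Hox-URE as the reference, URE-AML had 20.3% higher and 22.4% lower. Among 8 eIF2 kinases, phosphatase subunits and related factors, 2 were higher in Hox-URE than Hox-WT, a share near that of all tested genes, and the median log2 fold change of the list was -0.09. They were *Ppp1r15a*, the stress-induced subunit that restores eIF2 (35, 23.7 and 26.7 CPM in Hox-URE libraries 1 to 3, and 6.67, 9.35 and 8.68 in Hox-WT, log2 fold change 1.79 ± 0.27, adjusted p = 0.000338), and *Eif2ak3*, the kinase PERK (0.66 ± 0.12, adjusted p = 0.00134), whose call was lost without Hox-URE library 3 (0.54), where 1 of 8 was higher. *Ppp1r15a* was lower in URE-AML than Hox-URE (-1.74 ± 0.27, adjusted p = 0.000324). *Eif2ak1*, the heme-regulated kinase, was higher in URE-AML than Hox-WT (0.81 ± 0.09, adjusted p = 3.16e-05) and than in Hox-URE (0.90 ± 0.09, adjusted p = 1.76e-05). The kinases for amino acid shortage and double-stranded RNA, *Eif2ak4* and *Eif2ak2*, did not pass both thresholds in any comparison, with *Eif2ak4* at -0.53 in Hox-URE against Hox-WT (adjusted p = 0.00399), under a fold change of 1.5.

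Of 6 bZIP factors, which include partners of ATF4, 5 were tested and *Atf3* was not. In Hox-URE 3 were higher than in Hox-WT: *Ddit3*, the stress factor CHOP (log2 fold change 1.56 ± 0.39, adjusted p = 0.00671), *Cebpb* (0.96 ± 0.31, adjusted p = 0.0235) and *Cebpg* (0.62 ± 0.19, adjusted p = 0.0176). The call of *Cebpb* was lost without Hox-WT library 2 (0.82), Hox-WT library 3 (0.94) or Hox-URE library 3 (0.80), and that of *Cebpg* without Hox-WT library 1 (0.59), Hox-WT library 2 (0.61) or Hox-URE library 1 (0.35). Without Hox-WT library 2, 1 of these 5 factors, *Ddit3*, was higher in Hox-URE, a share near that of all tested genes, and *Atf3*, which was tested in that fit, was a further one. In URE-AML, *Cebpb* and *Jdp2*, a repressor of the AP-1 family, were higher than in Hox-WT (2.31 ± 0.31, adjusted p = 0.000123, and 1.80 ± 0.10, adjusted p = 2.51e-07). Against Hox-URE, *Jdp2* (1.97 ± 0.11, adjusted p = 1.61e-07) and *Cebpb* (1.35 ± 0.30, adjusted p = 0.00326) were higher in URE-AML, while *Ddit3* (-1.74 ± 0.40, adjusted p = 0.00352) and *Cebpg* (-0.75 ± 0.19, adjusted p = 0.00598) were lower, and *Cebpg* lost its call without Hox-URE library 1 (-0.49).

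Among 8 other stress targets of ATF4, 6 were tested, and *Fgf21* and *Vldlr* were not. In Hox-URE 4 were higher than in Hox-WT and 1 was lower, against 21.3% and 15.9% of all tested genes. *Gdf15*, a stress cytokine, was at 41.6, 25.1 and 32 CPM in Hox-URE libraries 1 to 3 and at 1.61, 1.86 and 2.25 in Hox-WT (log2 fold change 4.11 ± 0.26, adjusted p = 9.04e-07). *Nupr1*, a stress-responsive chromatin protein, was at 47.6, 101 and 171 in Hox-URE and at 0.262, 0.714 and 1.28 in Hox-WT (7.12 ± 0.58, adjusted p = 5.37e-06, and 7.73 without Hox-WT library 3). Unlike the 10 genes, *Nupr1* was lowest in Hox-URE library 1. *Ddit4*, an mTORC1 inhibitor (1.03 ± 0.20, adjusted p = 0.00162), and *Eif4ebp1*, a repressor of cap-dependent translation (0.77 ± 0.15, adjusted p = 0.00144), were the other two, and *Eif4ebp1* lost its call without Hox-URE library 1 (0.55).

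URE-AML had 2 of these 6 higher than Hox-WT, against 23% of all tested genes. They were *Ddit4* (log2 fold change 1.55 ± 0.20, adjusted p = 9.13e-05) and *Gdf15* (1.01 ± 0.26, adjusted p = 0.0072). Against Hox-URE, 4 were lower and 1 was higher, where 22.4% and 20.3% of all tested genes were. Without Hox-URE library 1 these counts were 3 and 2. The 4 were *Nupr1* (-7.59 ± 0.62, adjusted p = 3.29e-06), *Gdf15* (-3.09 ± 0.25, adjusted p = 2.82e-06), *Eif4ebp1* (-1.07 ± 0.15, adjusted p = 0.000148) and the nutrient sensor *Sesn2* (-0.77 ± 0.21, adjusted p = 0.00928), the last losing its call without Hox-URE library 1 (-0.50). The gene lower in Hox-URE than Hox-WT and higher in URE-AML than Hox-URE was *Stc2*, a secreted glycoprotein, at 5.64, 1.41 and 0.102 CPM in Hox-URE, 17.6, 13.5 and 21 in Hox-WT and 16.3, 12.8 and 12.3 in URE-AML. Every Hox-URE library was below all libraries of the other lines. The log2 fold change of *Stc2* was -2.80 ± 0.69 against Hox-WT (adjusted p = 0.00632, and -4.43 without Hox-URE library 1), and URE-AML was higher than Hox-URE by 2.47 ± 0.69 (adjusted p = 0.0108, and 4.09 without that library).

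Amino acid transporters were higher in Hox-URE for 6 of 9 and lower for 1, against Hox-WT, where 21.3% of all tested genes were higher and 15.9% lower. One of the 6, *Slc7a3*, passed the filter on low counts through Hox-URE alone, where it is high, and could only be called in that direction, and without it 5 of 8 were higher. *Slc6a9*, a glycine transporter, was at 78.3, 31.4 and 27.2 CPM in Hox-URE and at 1.5, 1.32 and 1.69 in Hox-WT (log2 fold change 4.92 ± 0.41, adjusted p = 6.38e-06, and 4.27 without Hox-URE library 1). *Slc1a5*, a glutamine and serine transporter, was at 498, 312 and 296 in Hox-URE and at 130, 130 and 116 in Hox-WT (1.56 ± 0.18, adjusted p = 5.6e-05). *Slc3a2*, the heavy chain of several amino acid exchangers (1.02 ± 0.16, adjusted p = 0.000413), and *Slc38a2*, a transporter of small neutral amino acids (0.89 ± 0.12, adjusted p = 0.000117), were higher too. The transporter that was lower was *Slc7a11*, the cystine carrier, at 10.4, 8.12 and 7.2 CPM in Hox-URE and at 29.2, 19.1 and 15.7 in Hox-WT (-1.31 ± 0.23, adjusted p = 0.000869), and 2 transporters were lower without Hox-URE library 1. *Slc7a3*, a transporter of cationic amino acids, had 590, 93 and 35 counts in Hox-URE and 0 in every other library, so Hox-URE was at least 83.9-fold higher than Hox-WT and at least 69.1-fold higher than URE-AML, with the other lines set at 3 counts per library. Without Hox-URE library 1 these bounds were 26.2-fold and 21.6-fold. *Slc7a3* was named after its values were seen.

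In URE-AML 7 of the 9 transporters were lower than in Hox-URE, against 22.4% of all tested genes, or 6 of 8 without *Slc7a3*. Against Hox-WT, 2 of 9 were lower, a share near the 20.2% of all tested genes, and 1 was higher, against 23%. *Slc1a4*, a transporter of serine and other small amino acids, had 2 to 4 counts per library in URE-AML, where it was at 0.161, 0.0951 and 0.0858 CPM, against 8.02, 7.32 and 9.96 in Hox-WT and 16.7, 5.8 and 5.36 in Hox-URE (log2 fold change -6.13 ± 0.61 against Hox-WT, adjusted p = 1.37e-05). At so few counts the fitted value depends on the prior count. Against Hox-URE it was -6.28 ± 0.61 (adjusted p = 1.25e-05), and -5.54 without Hox-URE library 1. *Slc1a5* (-2.001 ± 0.18, adjusted p = 7.71e-06), *Slc3a2* (-1.25 ± 0.16, adjusted p = 8.39e-05) and *Slc6a9* (-3.27 ± 0.37, adjusted p = 3.9e-05, and -2.63 without Hox-URE library 1) were lower in URE-AML than Hox-URE. Against Hox-WT, *Slc6a9* was higher in URE-AML (1.66 ± 0.41, adjusted p = 0.00578) and *Slc7a11* was lower (-0.90 ± 0.23, adjusted p = 0.00641).

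The 20 cytosolic aminoacyl-tRNA synthetases load amino acids on tRNA. In Hox-URE 3 of 20 were higher than in Hox-WT, where 21.3% of all tested genes were. They were *Wars* (log2 fold change 1.28 ± 0.13, adjusted p = 1.99e-05), *Sars* (0.86 ± 0.13, adjusted p = 0.000345) and *Tars* (0.63 ± 0.10, adjusted p = 0.000553), the last of which lost its call without Hox-URE library 1 (0.50), and the median log2 fold change of the list was 0.14. *Sars*, which loads serine, was at 359, 267 and 347 CPM in Hox-URE and at 165, 171 and 200 in Hox-WT. In URE-AML 8 of 20 were lower than in Hox-URE, against 22.4% of all tested genes, but 4 without Hox-URE library 1, against 22.8%. They included *Wars* (-1.87 ± 0.13, adjusted p = 1.03e-06), *Tars* (-0.82 ± 0.10, adjusted p = 7.37e-05), *Sars* (-0.93 ± 0.13, adjusted p = 0.00016) and *Aars* (-0.66 ± 0.12, adjusted p = 0.000771), the last of which lost its call without that library (-0.55). Against Hox-WT, *Qars* (-0.72 ± 0.11, adjusted p = 0.000292) and *Wars* (-0.59 ± 0.13, adjusted p = 0.00237) were lower in URE-AML, the latter under a fold change of 1.5 without Hox-WT library 3 (-0.55) or URE-AML library 2 (-0.58).

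Of 11 folate one-carbon enzymes outside the 10 genes, 10 were tested and *Aldh1l1* was not. In Hox-URE 3 were lower than in Hox-WT and 1 was higher, against 15.9% and 21.3% of all tested genes. The cytosolic enzyme *Mthfd1* (log2 fold change -0.73 ± 0.12, adjusted p = 0.000651), its mitochondrial relative *Mthfd2l* (-0.71 ± 0.14, adjusted p = 0.00216) and the thymidylate synthase *Tyms* (-0.62 ± 0.11, adjusted p = 0.00113) were lower. The call of *Tyms* was lost without Hox-WT library 3 (-0.54) or Hox-URE library 1 (-0.55). The gene that was higher, *Aldh1l2*, a mitochondrial enzyme that oxidizes formyl-folate, was at 12.7, 2.82 and 1.94 CPM in Hox-URE, 0.3, 0.321 and 0.38 in Hox-WT and 0.404, 0.618 and 0.214 in URE-AML. Of the 6 libraries of Hox-WT and URE-AML, 2 reached the filter's minimum of 0.391 CPM, taken before TMM, so it was tested only through Hox-URE, where it is high. Its log2 differences, 4.11 from Hox-WT to Hox-URE (2.81 without Hox-URE library 1) and -3.83 from Hox-URE to URE-AML (-2.53 without that library), are therefore a description, as is its place in the counts. *Mthfd2l* was higher in URE-AML than Hox-URE (0.72 ± 0.14, adjusted p = 0.00171).

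Of 4 genes of the glycine cleavage system, 2 were tested, and *Gldc* and *Amt* were not. Against Hox-WT, the carrier protein *Gcsh* was lower both in Hox-URE (log2 fold change -0.98 ± 0.14, adjusted p = 0.0002) and in URE-AML (-0.77 ± 0.14, adjusted p = 0.000761). Of 11 genes of proline, aspartate, glutamine and cysteine synthesis, *Cbs* was not tested. In Hox-URE 5 of the 10 tested were higher than in Hox-WT, against 21.3% of all tested genes. Without Hox-URE library 1, 3 were, a share near the 22% of all genes tested in that fit. *Glul*, glutamine synthetase, was at 201, 473 and 586 CPM in Hox-URE, 91.5, 101 and 110 in Hox-WT and 10.9, 7.94 and 12.8 in URE-AML, and like *Nupr1* it was lowest of its line in Hox-URE library 1. It was higher in Hox-URE than Hox-WT (2.06 ± 0.33, adjusted p = 0.000463) and lower in URE-AML than Hox-WT (-3.25 ± 0.35, adjusted p = 2.62e-05) and than in Hox-URE (-5.31 ± 0.39, adjusted p = 1.42e-06).

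*Pycr1*, the last enzyme of proline synthesis (log2 fold change 2.75 ± 0.39, adjusted p = 0.000225), and *Got1*, an aspartate aminotransferase (0.73 ± 0.16, adjusted p = 0.00342), were also higher in Hox-URE than Hox-WT, and *Got1* lost its call without Hox-URE library 1 (0.50). In URE-AML 4 of the list were lower than in Hox-WT and 2 were higher, against 20.2% and 23% of all tested genes. The count higher was 1 without Hox-WT library 2, Hox-WT library 3 or URE-AML library 2. Those lower were *Glul*, *Gpt2*, an alanine aminotransferase (-2.07 ± 0.25, adjusted p = 5.45e-05), and the proline enzymes *Aldh18a1* (-0.70 ± 0.09, adjusted p = 9.81e-05) and *Pycrl* (-0.80 ± 0.12, adjusted p = 0.000247). Against Hox-URE, 4 were lower in URE-AML, where 22.4% of all tested genes were. These were *Glul*, *Aldh18a1* (-1.21 ± 0.09, adjusted p = 2.29e-06), *Gpt2* (-2.09 ± 0.25, adjusted p = 5.38e-05) and *Pycr1* (-2.59 ± 0.39, adjusted p = 0.000266).

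**Figure D4:**
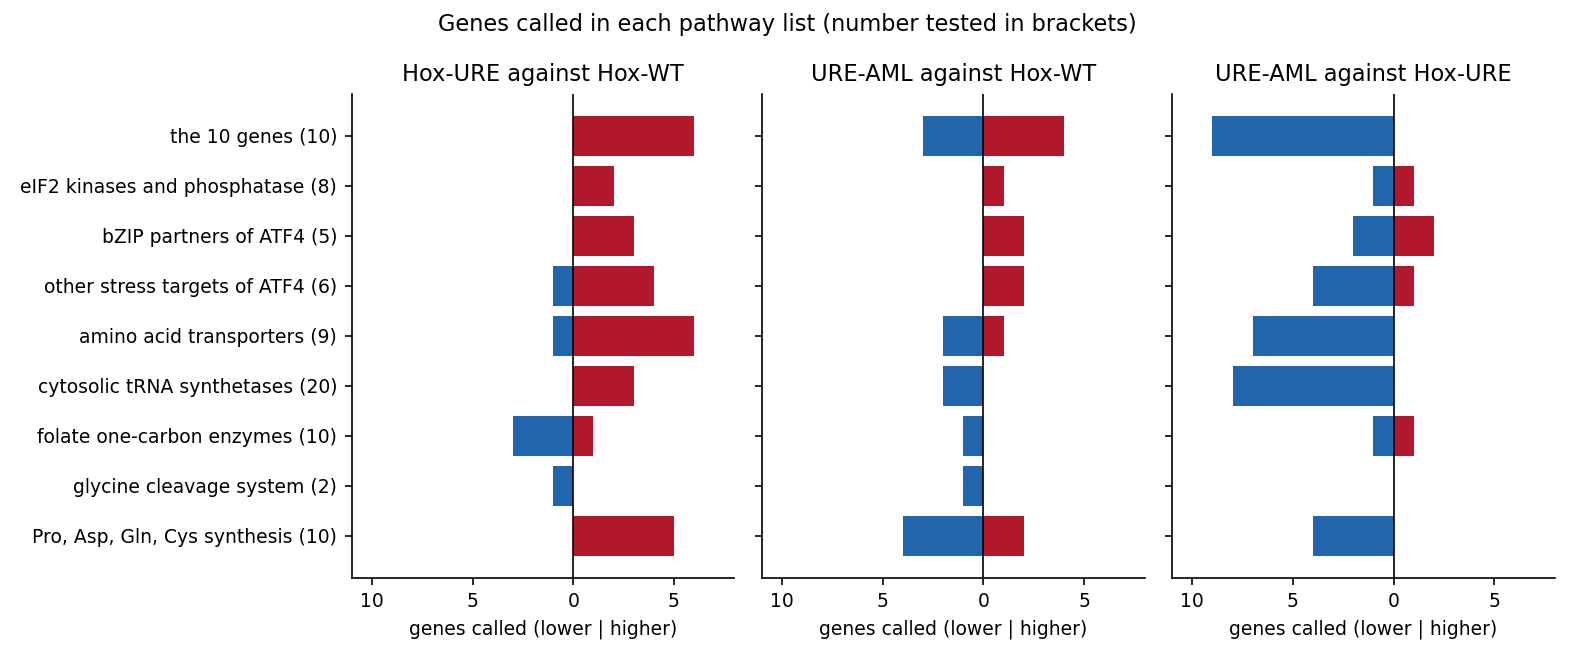
Number of genes called lower (blue, to the left) and higher (red, to the right) in each list and comparison (edgeR), with the number tested in brackets. Amino acid transporters numbered 6 higher and 1 lower between Hox-URE and Hox-WT, and 7 lower between URE-AML and Hox-URE, whereas 3 of 10 folate enzymes were lower in Hox-URE.

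Over the 9 libraries, the genes whose log2 CPM most resembled that of *Atf4* were *Tmem203* (Pearson's r 0.986), *Prkd3* (0.985), *Trib3* (0.983), *Ralgapb* (0.978) and *Apba3* (0.978). *Psph* was the next of the 10 genes (0.952), before *Atf5* (0.927), *Chac1* (0.832) and *Mthfd2* (0.675). *Asns* (0.281), *Shmt2* (0.256) and *Psat1* (-0.137) were far from it. Those closest to *Phgdh* were *Lin52* (0.941), *Vhl* (0.931), *Gm13205* (0.889), *Tnfrsf12a* (0.866) and *Nol6* (0.865), and its r with *Atf4* was 0.501. These values describe 9 libraries that fall into 3 lines and share Hox-URE library 1, so they carry no test.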

How the data were processed

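Poly-A RNA was sequenced in 9 stranded libraries. The authors quantified reads with Salmon and summed them to genes with tximport (genome GRCm38), and deposited whole-number estimated counts for each gene. Versions of Salmon and tximport, the transcriptome release for these libraries and any scaling for transcript length are not given in the sources used here, so a change in transcript use may move a count.

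Lines and library numbers came from the sample labels. All 9 libraries were fitted in one model with line as the only factor, by edgeR 4.0.16 in R 4.3.3, with TMM scaling and filterByExpr (minimum count 10), by which 13082 genes were kept, setting aside 0.0499% of counts. The common biological coefficient of variation was 0.173. Tests were two-sided quasi-likelihood F tests with Benjamini-Hochberg adjustment over all tested genes, and the thresholds (0.05 and a fold change of 1.5) are those of the study, which used DESeq2. Standard errors were taken as |log2 fold change| over the square root of F. Coordinates and lengths came from GENCODE M21, promoters from RefSeq. Likeness used log2 CPM with a prior count of 2. The code was tested on simulated data. Figures were drawn with matplotlib 3.10.9.

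The members and lists were chosen with earlier results of these data known. By rule, all 10 genes are named, with up to 4 called genes of smallest p per list and comparison, genes not tested, *Spi1*, *Hoxb8* and the 5 genes most like *Atf4* and *Phgdh*. *Stc2*, *Slc7a3*, *Eif2ak2*, *Eif2ak4*, *Phgdh-ps1* and marker genes at the floor are named beside it, and 2 genes covered by the rule are not reported here. Each result had 19 alternatives: 3 other scalings, 2 other filters, only the 6 libraries compared, a replicate block, no fold threshold, glmTreat, DESeq2 1.42.0, and leaving out each of the 9 libraries.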

Additional observations from a re-analysis of the deposited data

How the results depend on the processing

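Of 30 fold changes (10 genes, 3 comparisons), 17 kept their direction and side of the threshold under all 19 alternatives. Leaving out each library in turn gave log2 fold changes of -0.051 to 0.272 for *Phgdh* and -0.089 to 0.266 for *Shmt2* in Hox-URE against Hox-WT, and of -0.52 to 0.52 for *Chac1* and -0.193 to 0.044 for *Phgdh* in URE-AML against Hox-WT, none of which were called. The number of the 10 genes called higher in URE-AML against Hox-WT was 2 to 4 over the same alternatives. With glmTreat, 4 of the 10 were called there (2 higher), against 7 (4 higher) in the main test. With no fold threshold, 1 gene, *Psat1*, was lower in Hox-URE than Hox-WT. *Asns* was called higher in Hox-URE without a filter and in DESeq2, with adjusted p of 0.0184 to 0.569 over its alternatives. The *Atf4* call in URE-AML against Hox-WT was lost in 9 of 19 alternatives (adjusted p of 0.00112 to 0.393), and that against Hox-URE in 6 (0.00393 to 0.327). Requiring 10 counts in every library, which tested 10022 genes, called 3200, 3602 and 3553 genes in the 3 comparisons, against 4873, 5648 and 5591. With library size only, the median of all genes moved by -0.083 in Hox-URE against Hox-WT and by 0.109 in URE-AML against Hox-URE, all genes called higher and lower went from 2789 and 2084 to 2502 and 2545 and from 2662 and 2929 to 3166 and 2605, 5 tRNA synthetases were lower in the latter (8 in the main test), and *Atf4* lost its call there. With glmTreat 3 tRNA synthetases were.

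The labels tie no number to a day or batch. For experiments spanning several days, the paper states that each day held replicates of all conditions, without linking library numbers to days. Not every correlation below was over 0.1, so the libraries were not treated as paired in the main fit. Deviations of same-numbered Hox-URE and Hox-WT libraries correlated at 0.271, 0.099 and 0.174, those of other pairs of lines at 0.01 to 0.092. In Hox-URE against Hox-WT each library correlated best with its own number, and elsewhere own numbers were the best or tied match, a hint from the data and not the design. With the replicate block, 4908, 5679 and 5584 genes were called, and the counts of the 10 genes stayed at 6, 7 and 9. The cause of these changes was not tested. The lowest count of any of the 10 genes in a library was 64.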
